A study of Mus musculus with 12 samples.

Results

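*Keap1* loss was examined here across all stimuli at once, by setting the 6 arrays of KpCKO bone marrow-derived macrophages (BMDMs) against the 6 WT arrays of the series, which has 12 arrays in all. The KpCKO mice were *Keap1* flox/flox and carried LysM-Cre, a Cre recombinase driven from the *lysozyme M* locus of myeloid cells and bred in from heterozygous mice. The labels call the other mice WT, and whether they carried a floxed or a Cre allele is not given in the sources used here. All mice were C57BL/6 per the labels (C57BL6/J in the methods) and 8 weeks old, and the bone marrow cells were grown with M-CSF for 7 days. The cells were then left untreated (Con), or stimulated for 6 h with LPS and IFNγ (M1) or with IL-4 (M2). There were 2 independent cultures, each from 1 WT and 1 KpCKO mouse, male in replicate 1 and female in replicate 2, so that the series held 4 mice and each mouse gave 3 arrays. A KpCKO and a WT array of the same stimulus and replicate number formed a pair, which gave 6 pairs. For each of 22367 genes or transcripts with a signal well above background in at least 1 group, the level was the log2 signal less the 75th percentile of that array's signals, and the shift was KpCKO minus WT within a pair. The genes of main interest are those with the same direction of shift in all 6 pairs, of which 2411 were higher (10.8%) and 2792 lower (12.5%) in KpCKO. Members of gene lists are also described by the pooled fit, whether or not they had 1 direction in all 6 pairs.

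Keap1 is the adaptor that hands Nrf2, the product of *Nfe2l2*, to a Cul3 ubiquitin ligase for destruction. When Keap1 is missing or modified by electrophiles, Nrf2 builds up, pairs with a small Maf protein and binds antioxidant response elements (AREs) near genes of glutathione, thioredoxin, NADPH and quinone metabolism. In macrophages the pathway is known for antioxidant defence and for restraint of inflammatory genes.

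The 3 arrays of a mouse are not independent, so every p given below measures the spread between arrays of 4 mice and not between many animals. An exact test over the 2 pairs of mice could not go below p = 0.5, two-sided. When the 3 arrays of each mouse were averaged first, limma called 0 genes higher and 0 lower after adjustment, with 2370 higher and 2409 lower at an unadjusted p under 0.05. Each of the 3 slides carried all 4 arrays of a stimulus, so that every pair lay on a single slide, while stimulus and slide cannot be told apart. On every slide the mice occupied the same positions, so position on the slide and mouse cannot be told apart. Raw signals were dimmest in M1, where the 75th percentile ranged from 548 to 757 in WT and from 787 to 906 in KpCKO, against 966 to 1166 elsewhere. Between 59.4% and 71.5% of probes were well above background, the lowest share being that of WT M1 replicate 1.

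The gene targeted in these mice was lower in all 6 KpCKO arrays than in their WT partners. *Keap1* had levels between 2.85 and 4.80 in WT, with a median of 3.21, and between 0.94 and 3.04 in KpCKO, with a median of 1.75. The ranges overlapped because *Keap1* was higher in M1 in both genotypes, whereas the shifts within pairs were −1.46 and −1.45 in Con, −1.67 and −1.76 in M1, and −1.70 and −1.92 in M2. The pooled shift was −1.66 ± 0.13 (SE), or 3.16-fold (limma, adjusted p = 1.01e-04). A *Keap1* signal well above background remained on all 6 KpCKO arrays, and whether the probe lies within the floxed part of the gene is not known here. *Nfe2l2* was also lower in all 6 pairs, by 0.18 to 0.75 on the log2 scale, with a pooled shift of −0.49 ± 0.09 (adjusted p = 0.00903).

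**Figure D1:**
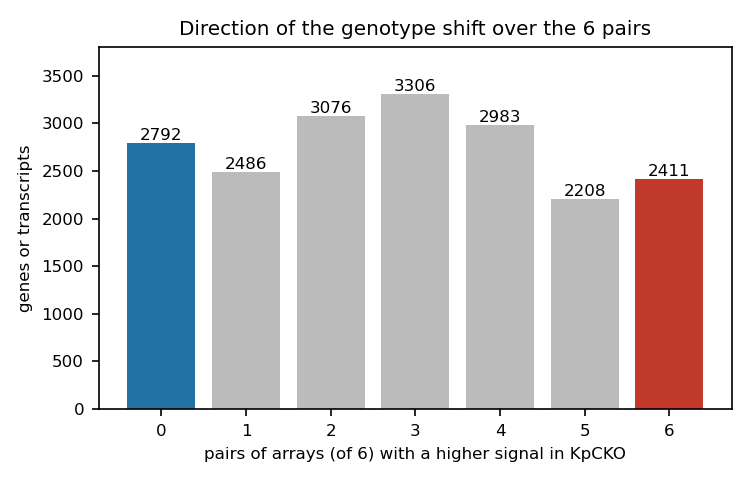
Number of genes or transcripts (y axis) by the number of the 6 pairs in which the signal was higher in KpCKO (x axis), for the 19262 that had at least 1 array well above background in every pair. The outer bars are the 2792 genes lower and the 2411 genes higher in all 6 pairs.

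A total of 19262 genes could be read in all 6 pairs, that is, at least 1 array of every pair was well above background. Genes higher in 1 to 5 pairs numbered between 2208 and 3306 in each class, as the plot of genes by number of pairs shows. The shifts of the higher genes had a median of 0.44 on the log2 scale, with quartiles of 0.26 and 0.75. Those of the lower genes had a median size of 0.34, with quartiles of 0.21 and 0.56. The pooled limma test, with stimulus and replicate number as blocks, called 1590 genes higher (7.11% of those tested) and 1553 lower (6.94%). Of the genes with 1 direction in all 6 pairs, 1406 of the higher and 1347 of the lower passed it, which is a description, since both rest on the same arrays. A shift of more than 2-fold in every pair was found for 139 higher genes (0.621%) and 46 lower genes (0.206%). More than 4-fold in every pair were 30 higher and 4 lower genes, and more than 8-fold 13 higher and 0 lower genes. Just inside the 2-fold limit lay *Hvcn1*, whose smallest shift was 1.008, and *C1qa*, whose smallest was 1.015 downward. Just outside it lay *Stac2* with 0.989 and *Kcnj10* with 0.998 downward.

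The 12 higher genes with the largest smallest shift over the 6 pairs were *Prl2c5*, *Prl2c3*, *Gsta3*, *Gsta1*, *Tnfsf4*, *Il1f9*, *Heph*, *Gsta2*, *Cd5l*, *Slc36a2*, *A530064D06Rik* and *Nqo1*. The 12 lower genes by the same rule were *Adgre4*, *Il1b*, *Fxyd2*, *Ccl12*, *Spic*, *Kdr*, *Dcun1d5*, *Adamts20*, *Cd86*, *Ccl8*, *P2ry13* and *Ifi44*.

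**Figure D2:**
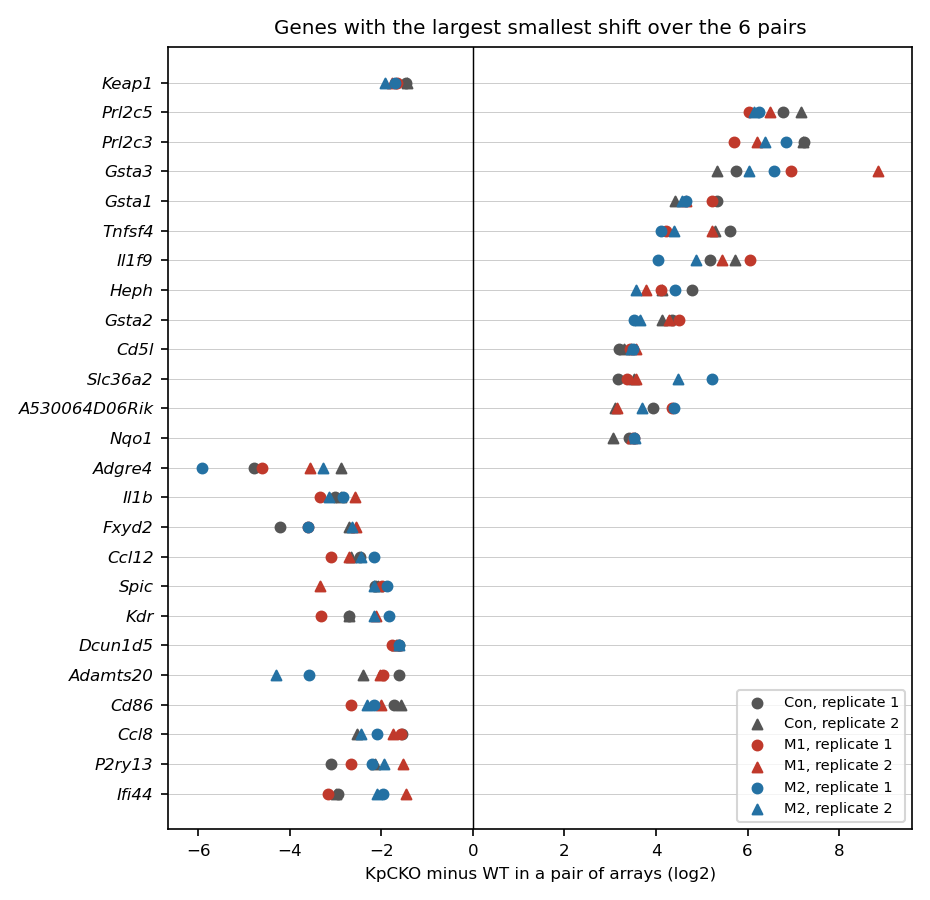
KpCKO minus WT in each of the 6 pairs of arrays (x axis, log2) for *Keap1*, the 12 higher and the 12 lower genes (y axis), with stimulus by colour and replicate number by shape. No point of these genes crosses 0, and the shifts of *Dcun1d5* and *Cd5l* lie closest together.

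*Prl2c5* and *Prl2c3*, members of the prolactin family that are known from the placenta, had the largest smallest shift over the 6 pairs. *Prl2c5* ranged from −5.62 to −3.41 in WT (median −4.72) and from 0.76 to 2.74 in KpCKO (median 1.66). *Prl2c3* ranged from −6.04 to −3.88 in WT (median −4.87) and from 0.74 to 2.50 in KpCKO (median 1.62). The genotypes did not overlap for either gene. The pooled shifts were 6.48 ± 0.16 for *Prl2c5* and 6.60 ± 0.20 for *Prl2c3*, or 89.2-fold and 96.7-fold. With normexp background correction and quantile normalization they were 4.95 for *Prl2c5* and 4.80 for *Prl2c3*, and the pooled fold of 17 of the 24 genes named above moved by more than 1.5 times. These genes are close copies of each other and their probes may read more than 1 of them, so they are not separate observations. The other family member tested, *Prl3b1*, had a pooled shift of −0.12 (adjusted p = 0.333), and 3 of the 7 measured members were below background on all 12 arrays.

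*Nqo1*, which encodes a quinone reductase widely used as a readout of Nrf2, ranged from −2.45 to −1.58 in WT (median −2.09) and from 1.07 to 1.79 in KpCKO (median 1.42). Its 6 shifts were 3.40 and 3.06 in Con, 3.53 and 3.48 in M1, and 3.52 and 3.53 in M2. The pooled shift was 3.42 ± 0.07 (adjusted p = 6.14e-08), and the genotypes did not overlap. *Cd5l*, a secreted protein of macrophages that binds lipids, was as even, with shifts from 3.19 to 3.56 and a pooled shift of 3.41 ± 0.07. It ranged from 3.64 to 4.88 in WT (median 4.40) and from 7.20 to 8.07 in KpCKO (median 7.77).

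Of the other genes among the 12, *Tnfsf4*, *Il1f9* and *Gsta2* were read poorly in WT cells. *Tnfsf4*, the ligand of the T cell receptor OX40, was well above background on 2 of 6 WT arrays and on all 6 KpCKO arrays, with shifts from 4.12 to 5.61. *Il1f9*, the interleukin-1 family cytokine IL-36γ, was so on 3 WT arrays and 6 KpCKO arrays, with shifts from 4.04 to 6.05. *Gsta2* was not well above background on any WT array, so that its difference is a bound of at least 4.598-fold higher in KpCKO, against a fitted 16.8-fold, and its pooled shift of 4.07 was 0.81 with normexp. *Heph*, a membrane ferroxidase of iron export, was well above background on 5 of 6 WT arrays and had shifts from 3.55 to 4.80. The next 2 genes were so on all 6 WT arrays. *Slc36a2*, a proton-coupled amino acid transporter, had shifts from 3.16 to 5.22, of which both M2 pairs were the largest. *A530064D06Rik*, a transcript of no known role here, had a pooled shift of 3.77 ± 0.23. All of these passed the pooled test, which the rule that picked the 12 required. Their adjusted p lay between 7.56e-07 (*Heph*) and 4.14e-05 (*Slc36a2*).

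Among the lower genes, *Adgre4*, an adhesion G protein-coupled receptor of myeloid cells, fell most. It ranged from −2.20 to 0.77 in WT (median −1.12) and from −8.12 to −2.12 in KpCKO (median −5.13), where 4 of 6 arrays were well above background. Its shifts were −4.78, −4.61 and −5.92 in replicate 1 and −2.89, −3.57 and −3.28 in replicate 2. The pooled shift was −4.17 ± 0.40 (adjusted p = 3.15e-04), and a difference between the replicate numbers did not pass the test (adjusted p = 0.294).

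*Il1b*, the gene of the proinflammatory cytokine interleukin-1β, was lower by a like amount whether or not the cells had been stimulated. Its level ranged from 0.35 to 8.88 in WT (median 2.58) and from −2.49 to 6.31 in KpCKO (median −0.43), so that the genotypes overlapped across stimuli. Within pairs it was lower by 3.01 and 2.89 in Con, by 3.35 and 2.57 in M1, and by 2.84 and 3.14 in M2 on the log2 scale. The pooled shift was −2.97 ± 0.12, or 7.81-fold (adjusted p = 1.87e-06), and the test of a difference between stimuli gave an adjusted p of 0.998.

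Further genes of the 12 encode immune receptors and ligands. *Cd86*, a costimulatory ligand for T cells, fell by 1.58 to 2.67 over the pairs. *P2ry13*, a receptor for ADP, fell by 1.52 to 3.09, and *P2ry12*, its neighbour on chromosome 3 and also an ADP receptor, was more than 2-fold lower in all 6 pairs too (pooled −2.04 ± 0.24). *Ccl12* fell by 2.15 to 3.11 and *Ccl8* by 1.54 to 2.53. *Ifi44*, an interferon-induced gene, fell by 1.45 to 3.16. *Kdr*, the VEGF receptor VEGFR2, fell by 1.84 to 3.31, and *Spic*, a transcription factor of iron-recycling macrophages, by 1.88 to 3.33. *Fxyd2*, a regulator of the sodium pump, fell by 2.55 to 4.21 and *Adamts20*, a secreted metalloproteinase, by 1.61 to 4.30. *Adamts20* was well above background on only 3 of 6 KpCKO arrays, so the size of its shift depends on that background. *Dcun1d5*, which promotes the neddylation of cullins, moved by the most even amount, falling by 1.61 to 1.78 (pooled −1.66 ± 0.06, adjusted p = 5.95e-07). With the mean of a gene's probes in place of the brightest, the pooled shift was −0.96 for *Dcun1d5* and −0.85 for *Adamts20*, against −2.65 for *Adamts20* with the brightest probe.

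**Figure D3:**
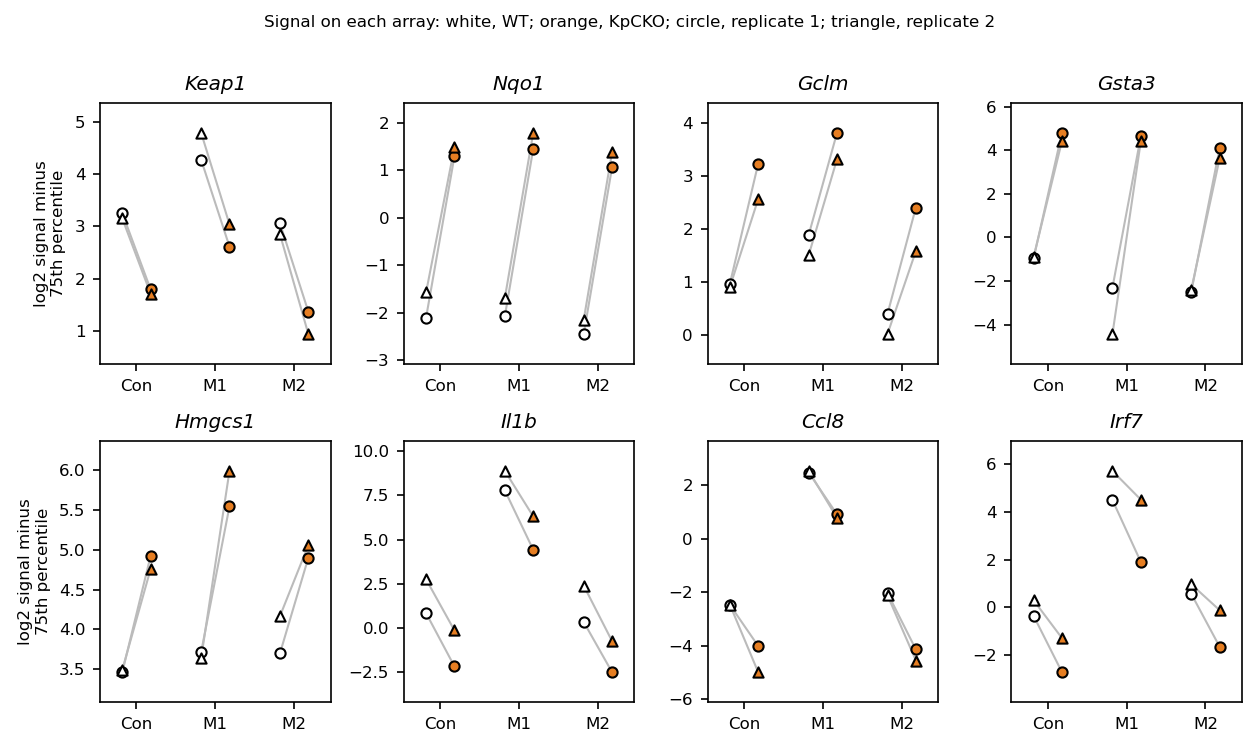
Level of 8 genes on each of the 12 arrays (y axis, log2 signal minus the 75th percentile of the array) by stimulus (x axis). White marks are WT, orange marks are KpCKO, circles are replicate 1, triangles are replicate 2, and grey lines join the 2 arrays of a pair: every line rises for *Nqo1*, *Gclm*, *Gsta3* and *Hmgcs1* and falls for *Keap1*, *Il1b*, *Ccl8* and *Irf7*.

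Genes were then grouped by function in 32 lists, each described by the number of tested members past the pooled test and by the median pooled shift, beside a median of −0.02 over all genes tested and the 7.11% of genes called higher and 6.94% called lower. The regulators of the pathway moved little apart from *Keap1* itself. Of 11 tested, 2 were higher, namely *Sqstm1* (0.70 ± 0.14), an autophagy adaptor that binds Keap1, and *Mafg* (0.45 ± 0.09), a small Maf partner of Nrf2, and 2 were lower, *Keap1* and *Nfe2l2*. *Bach1*, the repressor that competes for AREs, had a shift of 0.06 (adjusted p = 0.826) and *Cul3* of 0.11 (adjusted p = 0.736). The median of this list was 0.06 and changed sign between alternatives.

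Glutathione metabolism was higher over most of its steps. Of 15 genes of glutathione synthesis and cystine uptake, 9 were higher and 1 lower, with a median of 1.09. *Gclm*, the modifier subunit of the rate-limiting ligase, ranged from 0.01 to 1.88 in WT (median 0.92) and from 1.58 to 3.81 in KpCKO (median 2.89). Its shifts lay between 1.57 and 2.27, with a pooled value of 1.88 ± 0.10 (adjusted p = 8.32e-06). *Gclc*, the catalytic subunit, rose by 1.06 ± 0.14, glutathione synthetase *Gss* by 1.77 ± 0.32 and glutathione reductase *Gsr* by 1.35 (adjusted p = 3.20e-04). *Slc7a11*, the cystine carrier of this pathway, rose by 2.44 ± 0.32, with shifts of 3.84 and 2.50 in Con, 1.33 and 1.28 in M1, and 3.34 and 2.32 in M2. A difference between stimuli did not pass the test for it (adjusted p = 0.242). Its partner chain *Slc3a2* had a shift of 0.18 (adjusted p = 0.341), and *Glrx*, a glutaredoxin, fell by 0.51.

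Of 20 glutathione S-transferases, which conjugate glutathione to electrophiles, 12 were higher and 1 was lower, with a median of 0.69, and 13 were higher in all 6 pairs. The alpha class moved most. *Gsta3* ranged from −4.43 to −0.90 in WT (median −2.35) and from 3.64 to 4.81 in KpCKO (median 4.43), with no overlap and a pooled shift of 6.58 ± 0.41, or 95.9-fold. *Gsta1* rose by 4.81 ± 0.13 and *Gsta4* by 3.23 ± 0.24. The microsomal *Mgst2* rose by 2.78 ± 0.12, and the mu class genes *Gstm3*, *Gstm1* and *Gstm2* by 1.59, 1.47 and 1.23. *Gsta1* with *Gsta2*, and the mu genes among themselves, are near copies whose probes may share signal. The theta class stood apart, with *Gstt2* lower by 0.42 (adjusted p = 0.0175) and shifts of −0.37 for *Gstt1* and −0.35 for *Gstt3* that did not pass the test.

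In the thioredoxin and peroxiredoxin system 6 of 14 genes were higher and 0 lower, with a median of 0.19. The higher genes were sulfiredoxin *Srxn1* (1.95 ± 0.12), the antioxidant enzymes *Prdx6* (1.91 ± 0.18), *Prdx1* (1.11 ± 0.16) and *Prdx2* (0.22), and the reductases *Txnrd1* (0.99 ± 0.17) and *Txnrd3* (0.35). The mitochondrial members *Txn2* and *Txnrd2* had shifts of 0.06 and 0.04. Of 11 enzymes of the pentose phosphate pathway and NADPH supply, 5 were higher and 0 lower, with a median of 0.33. They were malic enzyme *Me1* (1.76 ± 0.08), *Taldo1* (1.06), *Pgd* (0.72), *Idh1* (0.57) and *Tkt* (0.54), whereas *G6pdx*, the entry enzyme, had a shift of 0.14 (adjusted p = 0.286).

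Of 22 quinone, carbonyl and conjugation enzymes, 10 were higher and 1 lower, with a median of 0.29. Beside *Nqo1* the largest shifts were those of *Adh7*, an alcohol dehydrogenase, at 3.27 ± 0.59, *Cbr3*, a carbonyl reductase, at 2.07, and *Ptgr1*, a prostaglandin reductase, at 1.85. *Adh7* was well above background on 1 of 6 WT arrays. *Cbr2*, another carbonyl reductase, went the other way and fell by 1.58 ± 0.28, by 2.26, 2.52 and 2.37 in replicate 1 and by 0.76, 0.61 and 0.99 in replicate 2. Among heme and iron genes 9 of 16 were higher and 0 lower, with a median of 0.45. They included *Pir*, an iron-binding nuclear protein (2.61 ± 0.11), the iron carrier *Slc11a1* (1.56), the heme carrier *Slc48a1* (1.39), *Blvrb* (1.15) and the transferrin receptor *Tfrc* (1.004). *Hmox1*, the heme oxygenase often listed as an Nrf2 target, had shifts of 0.06, −0.29, 0.58, −0.87, 0.22 and −0.27 over the pairs and a pooled value of −0.09 ± 0.16 (adjusted p = 0.742). Its signs differed between the replicates in every stimulus.

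The enzymes of superoxide and hydrogen peroxide were split. Of 11 genes 3 were higher, among them *Cat* (2.21 ± 0.16) and *Sod1* (0.45), and 3 were lower, *Sod3* (−0.88), *Sod2* (−0.36) and *Ncf1* (−0.27). Scavenger receptors were split too, with 4 of 11 higher and 4 lower. *Cd36*, a receptor for oxidized lipids, rose by 1.92 to 2.69 over the pairs, and *Marco*, *Scarb1* and *Megf10* rose by 1.44, 0.68 and 0.89 in the pooled fit. The shift of *Marco* was between 1.88 and 2.95 in Con and M2 but −0.14 and −0.20 in M1 (adjusted p = 0.104 between stimuli). *Msr1*, *Cd163*, *Cxcl16* and *Stab1* fell by 1.24, 1.19, 0.73 and 0.53.

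A second kind of gene group that was higher concerned sterols. Of 18 genes of cholesterol synthesis and uptake, 15 were higher and 0 lower past the test, 17 were higher in all 6 pairs, and the median was 0.96. *Hmgcs1*, an early enzyme of the pathway, ranged from 3.46 to 4.17 in WT (median 3.67) and from 4.76 to 5.99 in KpCKO (median 4.99), without overlap. *Hmgcs1* rose by 1.503 ± 0.17 (adjusted p = 8.90e-04), *Mvd* by 1.40 and *Fdft1* by 1.31 ± 0.26. The median of the list was 0.82 in the Con arrays alone, 1.52 in M1 and 0.44 in M2, and the 6 pair medians ranged from 0.26 to 1.64, with both M1 pairs above the others. Of 15 LXR targets and genes of lipid efflux and lipogenesis, 5 were higher and 1 lower, with a median of 0.26. The desaturases *Scd2* (1.99) and *Scd1* (0.79) and lipoprotein lipase *Lpl* (0.64) rose, the receptor gene *Nr1h3* fell by 0.66, and the efflux genes *Abca1* and *Abcg1* had shifts of 0.39 and 0.05 that did not pass the test.

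**Figure D4:**
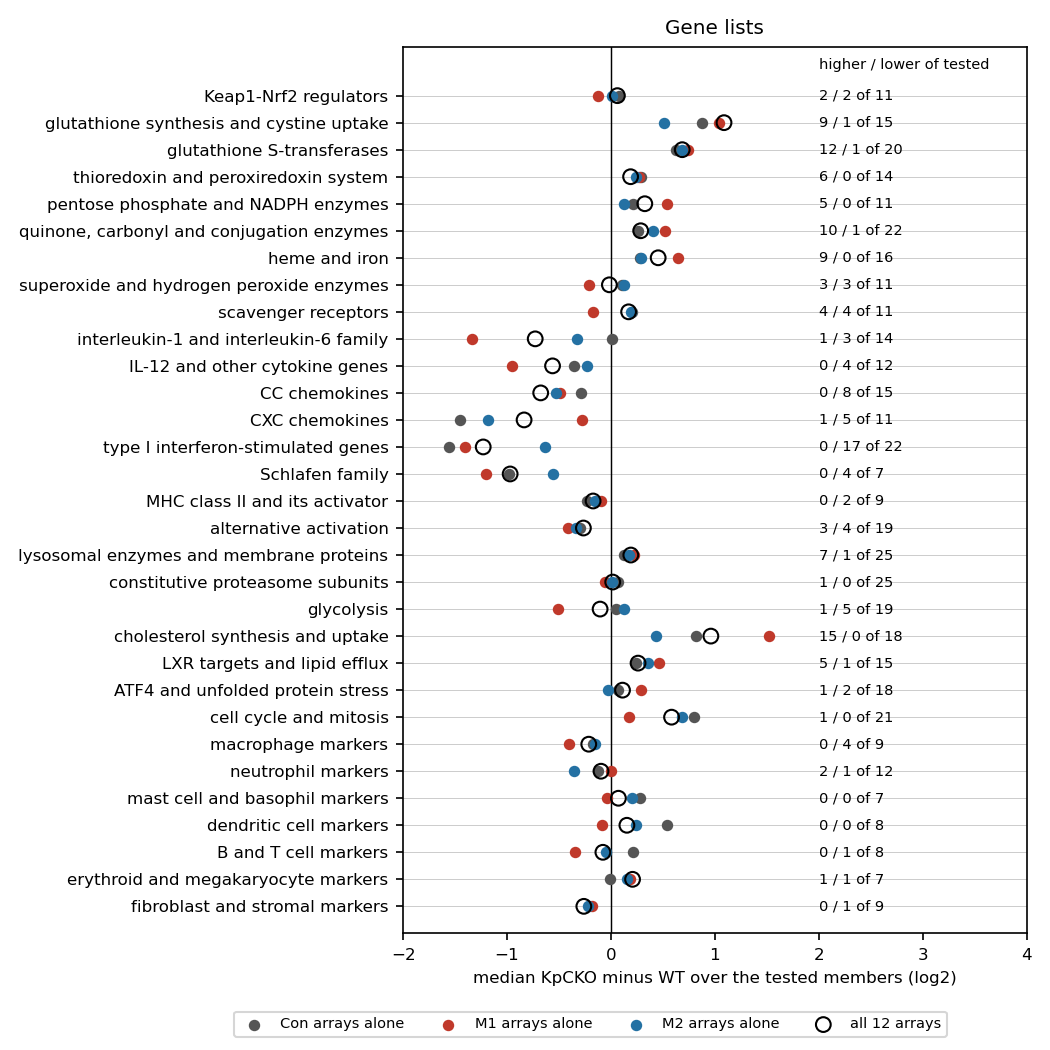
Median KpCKO minus WT over the tested members of each gene list (x axis, log2), for all 12 arrays (open circles) and for the arrays of each stimulus alone (filled circles), with the number of members called higher and lower at the right. The prolactin family, with a median of 6.48 over 3 members, is left out for scale, and the lowest pooled median is that of the type I interferon-stimulated genes at −1.23.

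Lists of inflammatory genes differed in how many members passed the test. Type I interferon-stimulated genes, which mediate antiviral defence, were lower as a group. Of 22 tested, 17 were lower past the test and 0 higher, all 22 had a pooled shift below 0, and the median was −1.23. *Irf7*, a transcription factor that amplifies interferon production, ranged from −0.35 to 5.73 in WT (median 0.77) and from −2.72 to 4.52 in KpCKO (median −0.70), overlapping across stimuli. It was lower by 2.36, 2.60 and 2.22 in replicate 1 and by 1.59, 1.20 and 1.09 in replicate 2, with a pooled −1.84 ± 0.25 (adjusted p = 0.00178). *Ifi44* fell by 2.43 ± 0.34, *Ifit3* by 2.07 ± 0.31 and *Ifit1* by 1.88 ± 0.30. The list median was −1.56 in Con alone, −1.41 in M1 and −0.64 in M2, so the lower level was present without stimulation. Of 7 Schlafen genes, also induced by interferon, 4 were lower (*Slfn5*, *Slfn8*, *Slfn9* and *Slfn2*, by 0.71 to 1.08) and the median was −0.97.

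Of 15 CC chemokines, which attract monocytes and other leukocytes, 8 were lower and 0 higher, with a median of −0.68. *Ccl12* fell by 2.59 ± 0.24, *Ccl8* by 1.99 ± 0.15, *Ccl4* by 1.72 ± 0.24 and *Ccl2* by 0.77 ± 0.15. *Ccl17* and *Ccl22*, chemokines of alternative activation, had shifts of −0.17 (adjusted p = 0.622) and 0.33 (adjusted p = 0.440). Of 11 CXC chemokines 5 were lower and 1 was higher, with a median of −0.84, which was −1.45 in Con alone, −0.28 in M1 and −1.18 in M2. *Cxcl9*, an interferon γ target, was well above background on all WT arrays but on only the 2 M1 arrays of KpCKO, so that no size is given for Con and M2. In M1 its shifts were −0.33 and −0.61. *Cxcl2* fell by 1.46, *Pf4* by 1.01 and *Cxcl16* by 0.73, while *Cxcl14* rose by 0.83 ± 0.10.

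The cytokine genes that the study names did not share one pattern over the stimuli. Of 14 genes of the interleukin-1 and interleukin-6 families, 3 were lower and 1 was higher, with a median of −0.73. That median was 0.01 in Con alone, −1.33 in M1 and −0.33 in M2. Beside *Il1b*, the antagonist *Il1rn* fell by 1.55 ± 0.21 and the receptor *Il1r1* by 0.83, and the coreceptor *Il6st* rose by 0.44. *Il6* had shifts of 0.74 and −0.28 in Con, −3.48 and −2.94 in M1, and 0.55 and −1.004 in M2, with a pooled −1.07 ± 0.57 (adjusted p = 0.242). *Il1a* had shifts of 0.33 and −0.33 in Con and of −2.87 and −3.43 in M1, and a pooled −1.41 ± 0.45 (adjusted p = 0.0720). With the 6 groups as separate terms in the fit, the same pooled shifts had adjusted p of 0.0438 for *Il6* and 0.00171 for *Il1a*. That fit took its variance from the arrays of all stimuli. Its M1 shift was −3.21 for *Il6* (limma, adjusted p = 0.0101) and −3.15 for *Il1a* (adjusted p = 0.00121). The test of a difference between stimuli did not pass (adjusted p = 0.179 for *Il6* and 0.0857 for *Il1a*). *Nos2*, the inducible nitric oxide synthase, was well above background on the M1 arrays alone and differed there by −1.31 and −1.68. Its M1 shift in the limma fit with 6 groups had an adjusted p of 0.00458. *Il12b* was not analysed here.

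*Tnf* had a pooled shift of −0.50 ± 0.20 and was lower in all 6 pairs, from −0.02 to −1.22, without passing the test (adjusted p = 0.123), and *Irf1* was at −0.16 ± 0.13 (adjusted p = 0.462). Of 12 tested IL-12 family and other cytokine genes, 4 were lower (*Il15*, *Ebi3*, *Il10* and *Ltb*, by 0.54 to 0.71) and 0 higher, with a median of −0.56. The antigen-presenting MHC class II list had 2 of 9 lower, *Cd74* (−0.73) and *H2-Ab1* (−0.53), and a median of −0.17 that changed sign under 1 or more alternatives. Its pair medians in Con, M1 and M2 were −0.31, −0.26 and −0.16 in replicate 1 but 0.12, 0.11 and 0.12 in replicate 2. *H2-Ab1* was not among the genes lower in all 6 pairs.

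Genes of alternative activation by IL-4 moved in both directions, with 3 of 19 higher and 4 lower and a median of −0.27. The transcription factor *Egr2* rose by 1.82 ± 0.43 and the chitinase-like genes *Chil3* and *Chil4* by 0.59 and 0.49. The lectin receptors *Mgl2* and *Mrc1* fell by 1.71 and 1.18 ± 0.10, *Ccl24* by 1.39 and *Tgm2* by 0.73. *Arg1*, the arginase marker of M2 cells, had a pooled −0.68 ± 0.20 that narrowly missed the threshold (adjusted p = 0.0524) and passed it under 8 of 30 alternatives. It was well above background on 4 of 6 arrays of each genotype. Its shifts were −0.12 and −0.84 in Con, −0.75 and −1.615 in M1, and −0.32 and −0.45 in M2. The limma fit with the 6 groups as separate terms used the arrays of all stimuli. In it the M2 shift of *Arg1* had an adjusted p of 0.664, and the M1 shift 0.0466.

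**Figure D5:**
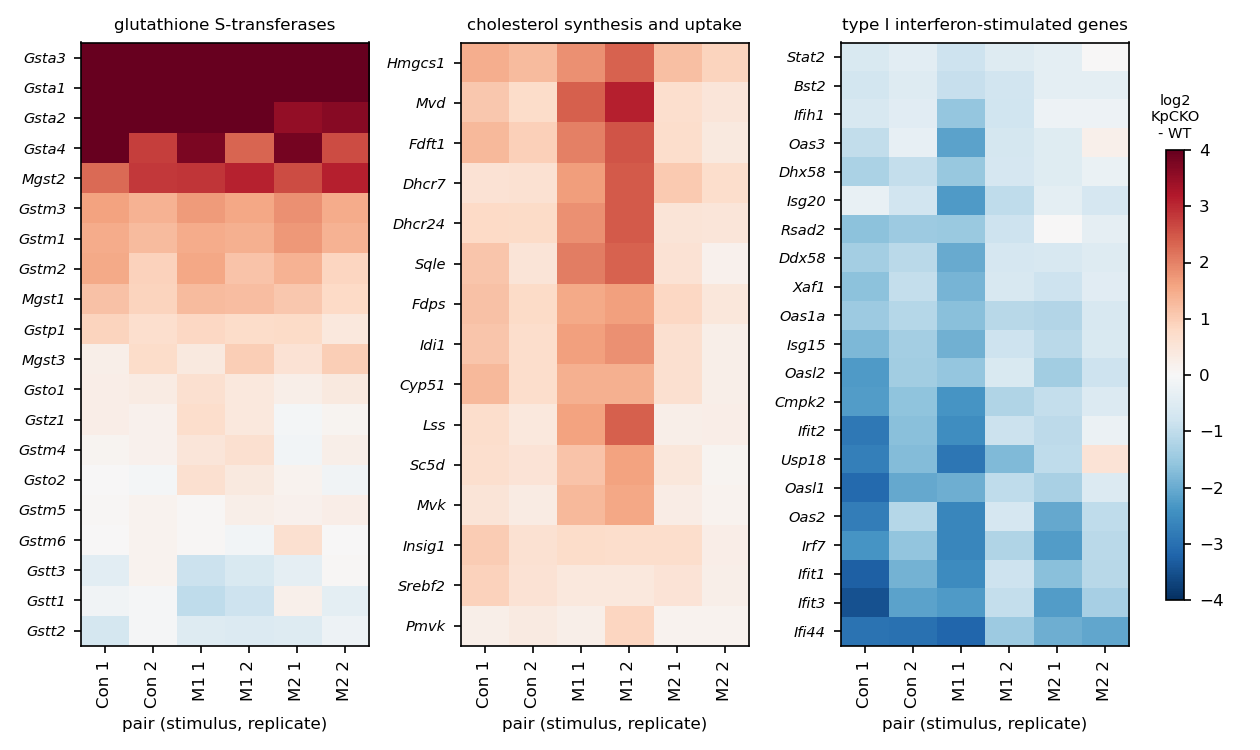
KpCKO minus WT (colour, log2, with values beyond 4 in either direction drawn at the end of the scale) in each of the 6 pairs (x axis) for tested members (y axis) of 3 lists, ordered by the pooled shift. The alpha class transferases at the top of the left panel are higher in every pair, the 15 sterol genes drawn are higher in every pair, most of them with the deepest colour in M1, and the 21 interferon genes drawn have a pooled shift below 0.

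Of 25 lysosomal genes, 7 were higher and 1 lower, with a median of 0.19. The acid lipase *Lipa* rose by 1.21 ± 0.29, cathepsins *Ctsk*, *Ctsd*, *Ctsl* and *Ctsh* rose by 0.30 to 0.68, and *Ctsc* fell by 0.92. Of 19 glycolysis genes, 1 was higher and 5 were lower, with a median of −0.10 that was −0.51 in M1 alone and 0.05 and 0.12 in Con and M2. The lactate exporter *Slc16a3*, *Pdk1*, *Pfkl*, *Hif1a* and *Tpi1* fell by 1.08, 1.07, 0.85, 0.70 and 0.49. Of 25 constitutive proteasome subunits 1 was higher, *Psmb5* (0.30), with a median of 0.02. Of 18 genes of ATF4 and the unfolded protein response 1 was higher, *Trib3* (0.87), and 2 were lower, *Hspa5* (−0.59) and *Xbp1* (−0.45). Of 21 cell cycle genes 1 passed the test, *Ccnb2*, though 8 were higher in all 6 pairs and the median was 0.58. The pair medians in Con, M1 and M2 were uneven, at 0.35, 0.29 and 0.14 in replicate 1 and 1.23, 0.01 and 1.24 in replicate 2. The cyclin dependent kinase inhibitor *Cdkn1c* was more than 2-fold higher in all 6 pairs at the same time, with a pooled 3.26 ± 0.31.

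The remaining genes more than 2-fold higher in all 6 pairs, of which 114 of 139 carried a symbol, held members of several kinds, most of which the lists did not hold, and those given here were chosen after their values were seen. Secreted or surface proteases and matrix genes included the elastase *Mmp12* (3.76 ± 0.22), the collagenase *Mmp8* (2.14) and *Nid1* (1.44). Lipid mediators were represented by *Pla2g7* (3.31), which hydrolyses platelet-activating factor, by the prostaglandin receptors *Ptgir* (2.71) and *Ptger2* (2.21), and by the fatty acid receptor *Ffar4* (2.95). *Ffar4* was well above background on only 3 of 6 WT arrays. Receptors for peptides were *Ednrb* (3.64) and *Vipr2* (1.98), and the precursor of enkephalins *Penk* rose by 2.92. Acetyl-CoA synthesis was represented by *Acss2* (3.05), aldehyde oxidation by *Aox1* (3.02), and organic cation transport by *Slc22a4* (2.58). The fusion genes *Ocstamp* and *Dcstamp* and the proton pump subunit *Atp6v0d2*, known from osteoclasts, rose by 1.55, 1.26 and 1.89.

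Of the 46 genes more than 2-fold lower in all 6 pairs, 35 carried a symbol. Beside those given above they included, again chosen after their values were seen, *Gpr34* (−1.83), a microglial and macrophage receptor, the paired receptors *Pilrb1* (−2.14) and *Pilrb2* (−1.80), *Bmp2* (−1.58), the phosphatase *Inpp4b* (−1.68), the adjacent genes *Tmem176a* (−1.39) and *Tmem176b* (−1.34), *Vnn3* (−1.34), *Ifitm6* (−1.72), *Oas1g* (−1.58), *Shoc2* (−1.41) and the complement subunit *C1qa* (−1.31). *Pilrb1* and *Pilrb2* are close copies, so that their signals may not be separate. In KpCKO *Inpp4b* was well above background on only 3 of 6 arrays and *Oas1g* on 4, so the sizes of their shifts depend on that background. *Dcn*, a stromal proteoglycan, fell by 2.72 ± 0.44, with shifts of −1.39, −1.82 and −1.16 in replicate 1 and −4.02, −3.66 and −4.29 in replicate 2.

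The promoter windows of the genes that shifted most were searched for the core of the ARE, since Nrf2 is known to bind this element. The letters searched were TGACNNNGC and TGAGNNNGC, on both strands of the RefSeq promoters of build GRCm38.p6, which run from 250 bases before to 50 bases after each start. Of the 114 symbols more than 2-fold higher in all 6 pairs, 90 had a promoter and 41 of these held a match (45.6%, 95% Wilson interval 35.7 to 55.8). The share was 34.8% of 11676 genes among all tested, 38.9% of 1474 genes higher in all 6 pairs and 35.6% of 1547 genes lower in all 6 pairs. Of the 28 promoters of genes more than 2-fold lower in all 6 pairs, 10 held a match (35.7%, interval 20.7 to 54.2). With TGACNNNGC alone the shares were 23.3% for the genes more than 2-fold higher and 16.4% for all genes tested. About 1 gene in 3 holds these letters by this count, so a match is a description of the window and not of binding.

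Some of the matches in genes of the glutathione, thioredoxin, NADPH and iron lists that were more than 2-fold higher in all 6 pairs, and in the top 12 genes, are shown with 10 bases on either side. Each is written 5′ to 3′ on the strand of the match, with the matched letters in capitals.
*Gclm* (chr3:122245413-122245441, minus strand): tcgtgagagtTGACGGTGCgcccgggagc
*Slc7a11* (chr3:50443692-50443720, plus strand): aactccagctTGAGAAAGCgccaacatta
*Gsta3* (chr1:21240454-21240482, plus strand): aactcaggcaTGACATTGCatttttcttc
*Srxn1* (chr2:152105356-152105384, minus strand): ccagagaggaTGAGTCGGCtctcagtaga
*Srxn1* (chr2:152105469-152105497, plus strand): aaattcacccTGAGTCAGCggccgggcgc
*Srxn1* (chr2:152105542-152105570, minus strand): tgtctcactcTGACCTAGCtgcccactgc
*Me1* (chr9:86695902-86695930, minus strand): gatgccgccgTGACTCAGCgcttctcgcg
*Pir* (chrX:164269207-164269235, minus strand): tttgggggagTGACTCAGCctctctatgc
*Slc11a1* (chr1:74375141-74375169, plus strand): tgtgaaattgTGAGCATGCcctcagtgat
*Il1f9* (chr2:24186300-24186328, minus strand): agagtcagcaTGAGTCTGCatgacttgtc
*A530064D06Rik* (chr17:48167244-48167272, plus strand): tgaggagagcTGAGAACGCccaggaggaa
The matches of *Me1*, *Pir* and *Srxn1* include the run TGACTCAGC or TGAGTCAGC. The window of *Nqo1* held no match.

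The genes that shifted in all 6 pairs were spread over the genome. Among genes with a symbol, between 9.71% and 15.4% were higher in all 6 pairs over the chromosomes, and between 9.93% and 16.2% were lower. The share past the pooled test was between 13.0% and 18.2%. The genes more than 2-fold higher in all 6 pairs were less even. Chromosome 9 held the most, 13 among 844 genes, beside 114 among all 14645 genes with a symbol. They include *Gsta1*, *Gsta2* and *Gsta4*, members of 1 family, and *Mmp12* and *Mmp8*, whose ARE core matches start at positions 7344255 and 7558249. The rest are *Ttc12*, *Cgnl1*, *Panx1*, *Layn*, *Me1*, *Cmtm8*, *Cd276* and *Alas1*. Chromosome 9 also held *Keap1*, *Dcun1d5* and *Fxyd2* among the genes more than 2-fold lower in all 6 pairs. Of the 50 tested genes on each side of *Keap1* on chromosome 9, 13 of 100 passed the pooled test, beside 15.1% of all genes placed on a chromosome.

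Whether a shift differed between Con, M1 and M2 was asked with limma's F test of the genotype by stimulus terms, which called 15 of 22354 genes (0.0671%), with 3075 at an unadjusted p under 0.05. Of these 15, 4 were higher in all 6 pairs and 0 lower in all 6. *Adh7* rose by 2.71 and 1.99 in Con, 5.62 and 5.74 in M1, and 1.83 and 1.72 in M2 (adjusted p = 0.0482). *Ddit4l*, an inhibitor of mTOR signalling, rose by 1.31 and 1.10, 2.72 and 2.84, and 1.07 and 1.04 (adjusted p = 0.0482), and *Cdon* and *Ptchd1* were likewise highest in M1. The count went from 15 to 261 without the WT M1 array of replicate 1, and to 0 when any 1 of 7 other arrays was left out. Among genes not of 1 direction throughout, 874 were lower in both M1 pairs and higher in the other 4, and 602 the reverse. The like counts were 143 and 194 for Con and 163 and 290 for M2, all among the 19262 genes readable in every pair.

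Whether a shift differed between replicate 1 and replicate 2 was asked after the data were seen. Limma called 99 genes (0.443%), of which 14 were higher and 8 lower in all 6 pairs. Sex, culture and mouse all differ between the replicate numbers and cannot be told apart. *Cdkn1c* rose by 4.11, 4.12 and 4.32 in replicate 1 and by 2.29, 2.28 and 2.46 in replicate 2 (adjusted p = 0.00315). *Prdm16*, a transcription factor best known from brown fat, had shifts of −0.57, −0.05 and −0.61 in replicate 1 and of −5.11, −4.62 and −4.95 in replicate 2 (adjusted p = 4.48e-04). Of the genes readable in every pair, 395 were higher in the 3 pairs of replicate 1 and lower in the 3 of replicate 2, and 241 the reverse.

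The cells carried the markers of macrophages in both genotypes, since all 9 measured markers were well above background on all 12 arrays. In KpCKO 4 of the 9 were lower and 0 higher, with a median of −0.21. They were the LPS coreceptor *Cd14* (−1.12 ± 0.09), the Fc receptor *Fcgr1* (−0.85), *Lyz2* (−0.71 ± 0.15) and *Adgre1* (−0.24), a surface receptor widely used to mark mouse macrophages. *Lyz2* is the lysozyme M gene, from whose locus the Cre of the KpCKO mice is driven, and the part of the Cre allele in its signal was not tested. *Csf1r* and *Mertk* had shifts of −0.10 and −0.03. The summed linear level of the list, in units of the 75th percentile, was between 717 and 1485 in WT and between 662 and 1003 in KpCKO.

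Markers of other cells were examined because bulk RNA cannot tell a change in the number of such cells from a change in RNA per cell. Of 12 neutrophil markers tested, 2 were higher, *Mmp8* (2.14) and *Mpo* (1.06 ± 0.24), and 1 was lower, *Retnlg* (−1.20 ± 0.26). Their summed level was between 12.5 and 25.8 in WT and between 14.0 and 28.2 in KpCKO. Mast cell and dendritic cell lists had 0 of 7 and 0 of 8 members past the test, and 1 of 8 B and T cell markers was lower, *Cd4* (−0.33). Of 9 fibroblast markers 1 was lower, *Dcn*, with summed levels of 66.2 to 137.0 in WT and 47.0 to 102.2 in KpCKO. The pair medians of the fibroblast list in Con, M1 and M2 were 0.31, 0.12 and 0.18 in replicate 1 but −0.58, −0.54 and −0.62 in replicate 2. In the erythroid and megakaryocyte list *Pf4*, also a macrophage chemokine, fell by 1.01 ± 0.14 and *Hba-a1* rose by 0.39, and the summed level was between 36.1 and 54.7 in WT and between 17.4 and 29.8 in KpCKO. The part of other cells in the shifts above was not tested.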

How the data were processed

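Cy3-labelled RNA was read on Agilent mouse arrays with 1 colour. The deposited files, per the file headers, hold the background-subtracted intensity of 43379 spots an array from Feature Extraction 10.7.3.1, with flags for outlier spots and spots well above background. A further matrix from the authors holds normalized log2 values, for which the methods name GeneSpring, and it served as an alternative. From these, spots with an outlier flag were dropped, repeated spots averaged on the log2 scale, and the 75th percentile of each array was subtracted. Probes were named by accession through RefSeq (18217 symbols among 32301 genes or transcripts), with the probe of highest mean signal taken for a gene. A gene was tested if both arrays of 1 or more of the 6 groups read it well above background (22367 genes). The fit used limma 3.58.1 in R 4.3.3 with genotype, stimulus and replicate number as terms, 283 genes lacking a value on at least 1 array, and Benjamini-Hochberg adjustment at 0.05. The precision is limited by the number of arrays, 12 from 4 mice. The fitting code was tested on simulated data.

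The pairing comes from the series' description, in which each of 2 cultures had 1 WT and 1 KpCKO mouse. Deviations from the group means correlated between same-numbered arrays at 0.162 to 0.597 over 15 pairs of groups. Where no array of a genotype read a gene above background, the bound compared the other genotype's mean with a floor, which on each array was the lowest signal above background or the gene's own, whichever was higher.

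Genes were named by a rule: *Keap1* and *Nfe2l2*, the 12 genes each way with the largest smallest shift over the 6 pairs (1 direction throughout, past the pooled test, above background on all 6 arrays of a genotype), members of each list with the highest and lowest differences or against its median, and genes the study names. The members and the 32 lists (493 entries, 468 measured) were chosen with earlier results of these data known. Alternatives changed the blocks, the variance model, the scaling, the background correction, the filter, the probe rule, the fold limit, the motif and the arrays included, and applied the unpaired test that the methods name. Tables and plots were made in Python 3.11.15 with pandas 2.3.3 and matplotlib 3.10.9. A few genes and a sequence are not reported here.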

Additional observations from a re-analysis of the deposited data

Results flagged for a closer look

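Among 65 named genes and lists, the 6 pair values of 3 held 1 pair far from the other 5, which is about what chance gives at 1 group in 20. *Nqo1* had its lowest shift, 3.06, in the Con pair of replicate 2. *Spic* had its lowest, −3.33, in the M1 pair of replicate 2. The median of the erythroid and megakaryocyte list was highest, at 0.56, in the M1 pair of replicate 1.

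The shift differed between the stimuli, by the test of the difference, for *Adh7* (adjusted p = 0.0482) and *Ddit4l* (adjusted p = 0.0482), both larger in M1. It differed between the replicate numbers for *Cdkn1c*, by −1.84 on the log2 scale as replicate 2 minus replicate 1, for *Dcn* by −2.54, for *Gsta4* by −1.34, for *Cbr2* by 1.59 and for *Ccnb2* by 1.62. The replicate numbers differ in sex, culture and mouse, which cannot be told apart.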

How the results depend on the processing

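The pooled counts of 1590 higher and 1553 lower genes stayed within 1.5 times under 11 alternatives of scaling, filter, probe rule, variance model and arrays. Without the replicate block they were 960 and 843, all among the same genes, and the count that differed between stimuli was 3. With the mouse as a random block they were 2635 and 2743. That fit estimated a correlation of −0.138 between arrays of a mouse. A negative value narrows the standard error of the genotype term, so these higher counts are not a stricter test. With the mean of the 3 arrays of each mouse limma gave 0 and 0 (2370 and 2409 at an unadjusted p under 0.05). The methods' t-test gave 128 and 44 after Benjamini-Hochberg adjustment and 931 and 716 before it. With the Con arrays left out they were 353 and 222, and with the M2 arrays left out 453 and 408. Leaving out 1 replicate number or 1 array gave 39 to 1599 higher and 14 to 1341 lower. The lowest counts, 39 and 14, came without replicate 1, and those without replicate 2 were 261 and 133.

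The counts of 1 direction in every remaining pair were 2578 to 4856 higher and 3107 to 5528 lower over the same omissions, and 4475 and 4311 with the M1 arrays left out, since fewer pairs have to share a direction. Genes over 2-fold in every pair numbered 144 to 275 higher and 49 to 136 lower over the omissions. They were 75 and 21 with normexp and quantile normalization and 276 and 167 at a fold of 1.5, and the lower ones 86 without the M1 arrays and 79 without the M2 arrays. The count that differed between stimuli, 15, was the least stable, at 83 with trended variances, 1 without a filter, 33 for genes above background on all 12 arrays, 5 with the median in place of the percentile, 2 with the mean of a gene's probes, 3 with quantile normalization, 94 with normexp, 0, 0 and 0 without the Con, M1 or M2 arrays, and 0 to 261 over the omissions. The promoter share of 45.6% was 23.3% with TGACNNNGC alone. With the M1 arrays left out, the pooled shift of *Il6* was near 0 at 0.0042 (adjusted p = 0.994), and that of *Nos2*, then not above background on any array, was 0.41 (adjusted p = 0.0822). Of 1014 values of named genes under alternatives, 938 kept their direction and side of the threshold, 61 lost the call, 13 gained one and 2 reversed. *Keap1* lost its call under 3 of them, at an adjusted p of up to 0.212, while its shift stayed between −1.76 and −1.55. The causes were not tested. Dim genes limit what can be read: a ratio to a genotype near background depends on that background.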
